A study of Homo sapiens with 6 samples.

Results

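The genes described here are 42 members of the pathways that remove platinum adducts from DNA or let cells copy DNA past them. They were taken by symbol from the 60649 gene rows of the count table and fall into 14 genes of nucleotide excision repair (NER), 15 of the Fanconi anemia (FA) pathway, 7 of translesion synthesis (TLS) and 6 of mismatch repair (MMR). RNA was sequenced from OVCAR5, a human cell line of ovarian cancer, in 3 libraries of cells that stably overexpressed METTL3 from a lentivirus and in 3 libraries of vector control cells. METTL3 is the catalytic subunit of the enzyme that writes N6-methyladenosine (m6A) into mRNA. Both groups were selected with puromycin, and the labels name no cisplatin or other drug for any of the 6 libraries. The values are therefore read as those of cells not exposed to platinum. The paper, in summing up its sequencing of METTL3-overexpressing and knockdown cells, speaks of stress from platinum, and its methods name no such treatment for these libraries. The labels describe the control cells as parental in one place and as carrying the empty lentiviral vector in another. Nothing says how many separate transductions or cultures stand behind the 3 libraries of a group, so p-values measure only the spread between these libraries, which may be technical.

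Cisplatin and carboplatin bind purines and join neighbouring bases on one DNA strand or, less often, bases on opposite strands. NER finds the distorted strand, opens it around the lesion and cuts it on both sides, and is the main route for removing adducts within a strand. Crosslinks between strands stop replication forks, where the FA core complex attaches ubiquitin to FANCD2 and FANCI and nucleases then release the crosslink. TLS polymerases copy across damage that is still in place, and MMR proteins recognise mispaired bases and can bind platinum adducts without removing them. Loss of MMR and high NER activity are both known for an association with platinum resistance in cell lines, and defects of the FA pathway for sensitivity to crosslinking agents.

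The transduced gene itself served as a check of the labels. Levels are given as CPM, the count scaled for library depth with TMM factors. METTL3 stood at 152, 165 and 175 CPM in the libraries labelled as overexpressing it, and at 80.6, 68.6 and 71.6 CPM in those of the vector, always in the order of replicates 1, 2 and 3, as throughout. Every overexpressing library was above every control, and edgeR's quasi-likelihood test estimated a log2 fold change of 1.16 (standard error, SE, 0.117) with a Benjamini-Hochberg adjusted p of 0.072. With 3 libraries against 3, an exact permutation test cannot go below p = 0.1, which METTL3 reached. Library totals ran from 96633925 to 125463386 counts. The 6 epithelial markers summed to between 5820 and 9070 CPM, whereas 8 markers of leukocytes, fibroblasts, pericytes and endothelium summed to between 20.2 and 29.6 CPM. Nearly all of the latter came from COL1A1, a fibroblast collagen (8.04 to 18.1 CPM), and CD14, a monocyte gene (7.02 to 11.4 CPM), while PTPRC and CD3E, the other leukocyte genes, were at 0.0708 CPM or less. The replicate 1 libraries stood apart: edgeR called 3362 genes of the table from replicates 2 and 3 of each group and 0 from all 6 libraries, so the main counts are also given without replicate 1.

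None of the 42 genes passed an adjusted p-value of 0.05 on all 6 libraries, nor did any other gene, so the share called over all 22038 genes tested was 0.00% (edgeR's quasi-likelihood test). All 42 passed the filter on low counts, with the lowest count at 372 reads for ERCC5 and the highest at 59495 for DDB1. Log2 fold changes with METTL3 ranged from -0.38 for FANCL to 0.32 for FAAP100, with 14 genes above 0 and 28 below, and a median of -0.07 against -0.018 over all genes tested. Of all genes tested, 10415 were above 0 and 11623 below. In replicates 2 and 3 the split of the 42 turned to 24 above and 18 below, against 10741 and 10980 over all genes. Each of the 42 95% confidence intervals lay between -0.75 and 0.76 on the log2 scale, so a doubling or a halving was outside the interval of every gene, while smaller changes could not be resolved. DESeq2 also called none of the 42, and 280 genes of the whole table (1.27%).

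At an unadjusted p-value under 0.05, edgeR's test picked 5 of the 42 genes (11.9%), against 8.30% of all genes tested. These were REV3L and FAAP100, which were higher with METTL3 (4.40% of all genes tested were higher), and ERCC1, MAD2L2 and FANCL, which were lower (3.91% of all genes). This count was 0 without METTL3-overexpressing replicate 1, METTL3-overexpressing replicate 2 or vector control replicate 3, and 7 without vector control replicate 1 (16.2% of all genes). For the fits that gave 0 the share over all genes was not counted, so the 0 cannot be read as particular to the 42. With the replicate number as a block the count among the 42 was 4 (11.3% of all genes), FAAP100 being the gene lost. Groups were free of overlap in CPM for 7 of the 42 (16.7%), namely the same 5 with GTF2H1 and FAAP24, against 17.4% of all genes tested. Of the 7, 2 were higher and 5 lower with METTL3, against 8.47% and 8.93% of all genes. With replicates 2 and 3 of each group, 6 of the 42 (14.3%) passed the adjusted threshold of 0.05, against 15.2% of all genes. Of these, ERCC1, ERCC2, FANCL and MAD2L2 fell with METTL3 (8.59% of all genes fell) and DDB2 and PMS2 rose (6.66% of all genes rose). DESeq2 on the same 4 libraries added REV3L, for 7 in all, and called 14.7% of all genes. At an unadjusted p-value under 0.05 those libraries gave 12 of the 42 (28.6%) with edgeR and 11 (26.2%) with DESeq2, against 27.1% and 22.6% of all genes, and DESeq2 on all 6 libraries gave 3 (7.14%), against 9.27%. These shares lay near those of the whole table.

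**Figure D1:**
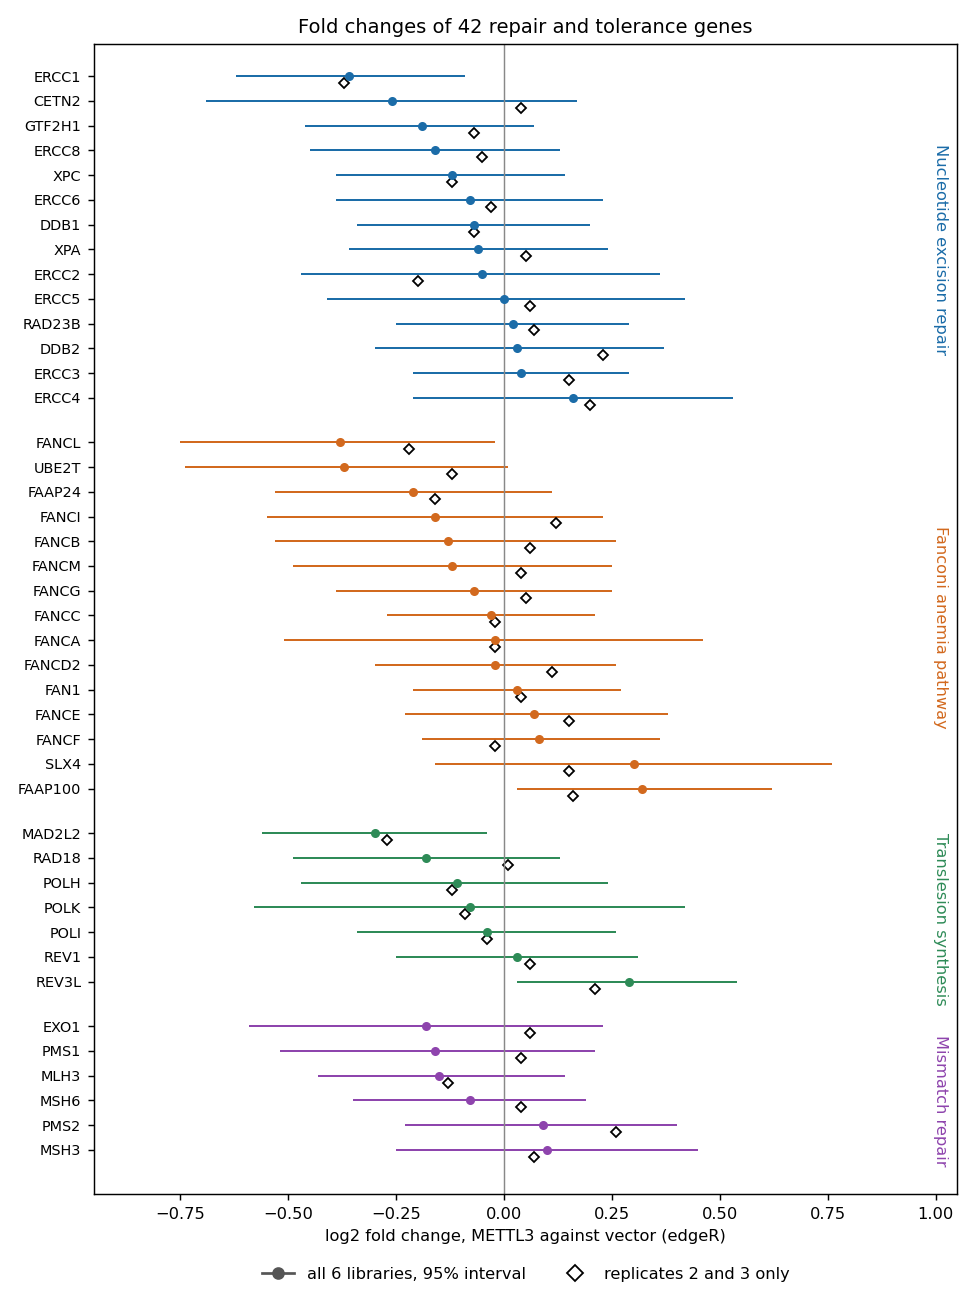
Log2 fold change of each of the 42 genes with METTL3 against vector, grouped by pathway. Filled circles and bars are edgeR estimates with 95% intervals over all 6 libraries, and open diamonds are estimates from replicates 2 and 3 only. The circles run from -0.38 (FANCL) to 0.32 (FAAP100), and the diamonds of ERCC1 (-0.37), MAD2L2 (-0.27), DDB2 (0.23) and PMS2 (0.26) lie farthest from 0.

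Levels between genes were compared per length, as TPM, which corrects the depth-scaled count for the length of the canonical transcript. In NER the DNA-binding adaptor DDB1 had the highest mean level at 254 TPM and the 3' incision nuclease ERCC5 the lowest at 2.46 TPM, a range of 103-fold. In the FA pathway the ubiquitin-conjugating enzyme UBE2T led at 141 TPM and the core subunit FANCB was lowest at 5.14 TPM. Among the TLS genes MAD2L2, the small regulatory subunit of polymerase zeta, stood at 112 TPM, and the polymerases were far lower, with REV1 at 24.0, REV3L at 8.28, POLH at 6.55, POLI at 4.42 and POLK at 3.37 TPM. The MMR genes lay closest together, from 66.0 TPM for MSH6 to 9.87 TPM for MLH3. The median was 36.3 TPM for NER, 20.9 for FA, 8.28 for TLS and 19.4 for MMR, against 6.07 TPM over all genes tested.

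**Figure D2:**
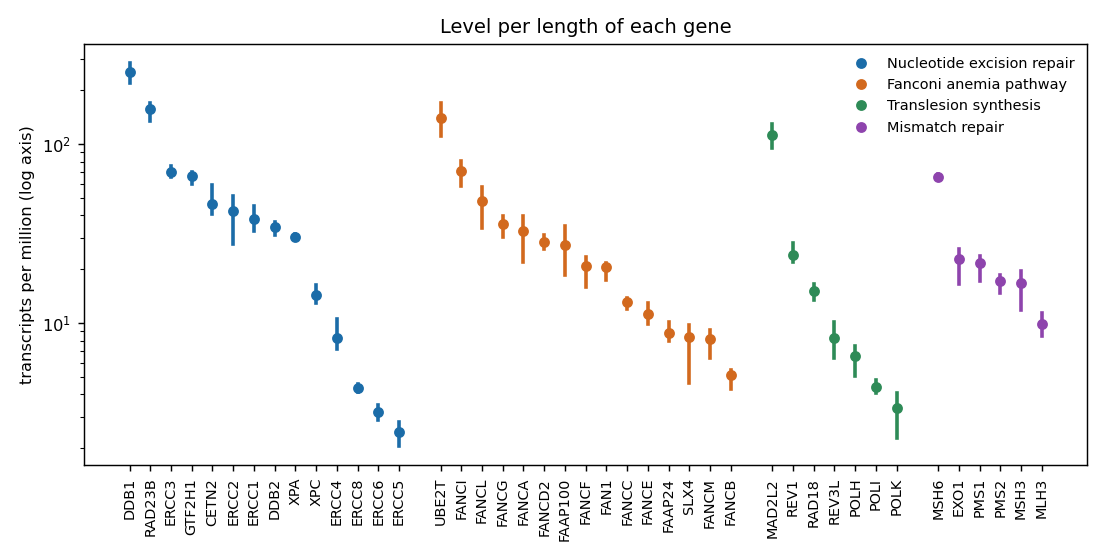
Mean level of each gene over the 6 libraries in TPM on a log axis, with vertical lines from the lowest to the highest library. DDB1 (254), UBE2T (141), MAD2L2 (112) and MSH6 (66.0) lead their pathways, and ERCC5 (2.46) is the lowest gene.

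The level of ERCC5 has a limit of its own. The canonical ERCC5 transcript shares 91.7% of its exonic bases with the read-through gene BIVM-ERCC5 on the same strand, and BIVM-ERCC5 was listed at 0 in all 6 libraries. How reads that fit both genes were counted is not given in the sources used here, so the ERCC5 count may hold part of its reads only.

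Among the NER incision genes, ERCC1 was lower with METTL3 in every comparison of libraries. ERCC1 is the non-catalytic partner of the nuclease ERCC4 (XPF), which cuts 5' of the lesion and also acts on crosslinks between strands. ERCC1 (ENSG00000012061.16, chromosome 19, 45407334 to 45478828, reverse strand of GRCh38) was at 43.8, 48.9 and 50 CPM with METTL3 and at 55.1, 63.1 and 64.6 CPM with the vector. The groups did not overlap, and the highest METTL3-overexpressing library lay below the lowest vector control library. The means were 47.6 ± 3.30 and 60.9 ± 5.13 CPM (SD, n = 3 a group), and edgeR's log2 fold change was -0.36 (SE 0.115, 95% interval -0.62 to -0.09, adjusted p = 0.517). Within replicate numbers 1, 2 and 3 the log2 difference was -0.33, -0.37 and -0.37, so replicate 1 gave a difference close to that of the others. In replicates 2 and 3 the fall passed the test (log2 fold change -0.37, adjusted p = 0.000334). In the canonical transcript, 47.1% of the ERCC1 exonic bases lie opposite exons of POLR1G, a subunit of RNA polymerase I, and the strand setting of the counting is not given in the sources used here. POLR1G itself was at 9.72, 13.6 and 14.5 CPM with METTL3 and 11.1, 14.2 and 14.9 CPM with the vector, which overlap.

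ERCC4, the catalytic partner of ERCC1, was at 28.5, 24.4 and 21.8 CPM with METTL3 and at 26.7, 20 and 20.3 CPM with the vector. The groups overlapped, and the log2 fold change of 0.16 (95% interval -0.21 to 0.53, adjusted p = 0.779 from edgeR's test) had the opposite sign to that of ERCC1. XPA, which verifies the lesion and positions the nucleases, was at 17.2, 17.6 and 18.3 CPM with METTL3 and 20.9, 16.7 and 17.8 CPM with the vector, and the spread between the vector libraries covered all METTL3 values.

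None of the genes of lesion recognition passed the test on all 6 libraries. XPC, which senses the opened helix throughout the genome, stood at 20.4, 22.7 and 20.6 CPM with METTL3 and 22.2, 24.6 and 22.5 CPM with the vector, for a log2 fold change of -0.12 (95% interval -0.39 to 0.14, adjusted p = 0.764 from edgeR's test). Exons of other genes, XPC-AS1 among them, lie opposite 30.0% of the canonical XPC exonic bases. Its log2 differences were -0.13, -0.12 and -0.12 in the 3 replicate numbers. DDB2, the damage-binding subunit that works with DDB1, was at 25.3, 27.2 and 28.1 CPM with METTL3 and at 31.6, 23.4 and 23.7 CPM with the vector. Vector control replicate 1 was the highest of the 6 libraries, and replicates 2 and 3 of the vector the lowest. DDB2 had a log2 fold change of 0.03 over all libraries (adjusted p = 0.959) and rose by 0.23 in replicates 2 and 3 (adjusted p = 0.0261 from edgeR's test). RAD23B and CETN2, which stabilise XPC, and DDB1 had log2 fold changes of 0.02, -0.26 and -0.07. The CETN2 value rested on vector control replicate 1, at 39.7 CPM against 22.9 to 26.8 CPM in the other 5 libraries, and was 0.04 in replicates 2 and 3.

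The TFIIH genes code for the complex that unwinds DNA at the lesion. Its helicase ERCC2 (XPD) was at 67.1, 75.7 and 72.7 CPM with METTL3 and at 53.7, 87.0 and 82.9 CPM with the vector. Here vector control replicate 1 was the lowest library, the sign differed between replicate numbers (0.32, -0.20 and -0.19), and ERCC2 passed the test as lower only when replicates 2 and 3 were used (log2 fold change -0.20, adjusted p = 0.0254 from edgeR's test). GTF2H1, a core subunit, was at 72.0, 85.2 and 81.4 CPM with METTL3 and at 98.2, 85.9 and 88.2 CPM with the vector, so the groups just missed overlap, with a log2 fold change of -0.19 (adjusted p = 0.655) and of -0.07 in replicates 2 and 3. ERCC3, the second helicase of the complex, had a log2 fold change of 0.04. The transcription-coupled genes ERCC6 and ERCC8, which act where RNA polymerase stalls, had values of -0.08 and -0.16, and neither passed the test. Over the 14 NER genes 5 were above 0 and 9 below, with a median of -0.068, and in replicates 2 and 3 the genes split 7 and 7 with a median of 0.009.

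In the FA core complex, genes of one module lay on opposite sides of 0. FANCL is the ubiquitin ligase of the core, and FAAP100 holds it together with FANCB in the catalytic module. FANCL (ENSG00000115392.12, chromosome 2, 58159243 to 58241410, reverse strand) was at 22.6, 32.4 and 33.4 CPM with METTL3 and at 38.5, 36.6 and 40.1 CPM with the vector, without overlap. Its means were 29.4 ± 5.99 and 38.4 ± 1.78 CPM (SD, n = 3 a group), which edgeR put at a log2 fold change of -0.38 (SE 0.161, 95% interval -0.75 to -0.02, adjusted p = 0.593 from edgeR's test). The difference was largest in replicate 1, at -0.77 on the log2 scale against -0.17 and -0.27, and FANCL fell by 0.22 in replicates 2 and 3 (adjusted p = 0.0316). Exons of VRK2 lie opposite 27.3% of the canonical FANCL exonic bases. VRK2 was itself lower with METTL3 without overlap, at 15.4, 21.9 and 21.7 CPM against 25.1, 23.8 and 23.8 CPM with the vector. The part of VRK2 reads in the FANCL value was not tested.

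FAAP100 (ENSG00000185504.17, chromosome 17, 81539885 to 81553961, reverse strand) was at 50.1, 42.9 and 43.9 CPM with METTL3 and at 31.8, 40.7 and 36.9 CPM with the vector, again without overlap. The log2 fold change was 0.32 (SE 0.130, 95% interval 0.03 to 0.62, adjusted p = 0.574 from edgeR's test). The log2 difference was 0.66 in replicate 1 against 0.08 and 0.25, and replicates 2 and 3 together gave 0.16 (adjusted p = 0.105). The third gene of the module, FANCB, was at 5.14 to 6.93 CPM with METTL3 and 6.45 to 7.56 CPM with the vector, for a log2 fold change of -0.13.

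The other core genes did not pass the test. FANCA, the largest core subunit, had 55.5, 82.0 and 85.7 CPM with METTL3 and 56.9, 88.7 and 81.5 CPM with the vector. Both replicate 1 libraries were low, and the log2 fold change was -0.02 (95% interval -0.51 to 0.46, adjusted p = 0.982 from edgeR's test). FANCC (-0.03), FANCE (0.07), FANCF (0.08) and FANCG (-0.07) had values of similar size. UBE2T, the conjugating enzyme that works with FANCL, was at 38.6, 46.3 and 52.9 CPM with METTL3 and at 70.2, 50.3 and 57.0 CPM with the vector, for a log2 fold change of -0.37 (95% interval -0.74 to 0.01, adjusted p = 0.609) that shrank to -0.12 in replicates 2 and 3. FANCM, the translocase that anchors the core to DNA, was at 18.2 CPM in METTL3-overexpressing replicate 1 and at 24.8 to 26.8 CPM in the other 5 libraries. Its small partner FAAP24 was at 7.28, 8.07 and 8.45 CPM with METTL3 and at 9.18, 9.71 and 8.69 CPM with the vector, with no overlap and a log2 fold change of -0.21 (adjusted p = 0.669 from edgeR's test).

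For the substrates of the core the groups overlapped. FANCD2 was at 52.8, 64.2 and 66.7 CPM with METTL3 and at 65.1, 60.6 and 60.5 CPM with the vector, for a log2 fold change of -0.02 (95% interval -0.30 to 0.26, adjusted p = 0.974 from edgeR's test). FANCI was at 109, 150 and 147 CPM with METTL3 and 181, 137 and 136 CPM with the vector, so that its log2 difference was -0.73 in replicate 1 and 0.13 and 0.11 in replicates 2 and 3. Of the nuclease genes, the scaffold SLX4 was at 26.3, 29.4 and 29.6 CPM with METTL3 and at 16.1, 28.2 and 25.0 CPM with the vector. Its log2 fold change of 0.30 (95% interval -0.16 to 0.76, adjusted p = 0.672) was 0.15 in replicates 2 and 3. FAN1, a nuclease that unhooks crosslinks, had a log2 fold change of 0.03. Over the 15 FA genes 5 were above 0 and 10 below with a median of -0.028, and in replicates 2 and 3 the count was 9 above and 6 below with a median of 0.044.

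In TLS, the subunits of polymerase zeta, the enzyme that extends the new strand past a platinum adduct, had values on opposite sides of 0, neither of which passed the adjusted threshold on all 6 libraries. REV3L, its catalytic subunit (ENSG00000009413.16, chromosome 6, 111299028 to 111483715, reverse strand), was at 43.6, 41.9 and 37.2 CPM with METTL3 and at 32.1, 34.2 and 34.2 CPM with the vector. All METTL3-overexpressing libraries lay above all vector control libraries, with means of 40.9 ± 3.33 and 33.5 ± 1.20 CPM (SD, n = 3 a group) and a log2 fold change of 0.29 (SE 0.112, 95% interval 0.03 to 0.54, adjusted p = 0.567 from edgeR's test). In replicates 2 and 3 the value was 0.21, with an adjusted p of 0.0529 from edgeR and 0.0396 from DESeq2. MAD2L2, also called REV7 (ENSG00000116670.15, chromosome 1, 11658918 to 11691811, reverse strand), was at 40.1, 47.4 and 46.3 CPM with METTL3 and at 51.6, 55.1 and 57.7 CPM with the vector. These groups did not overlap either, here with the METTL3-overexpressing libraries below, with means of 44.6 ± 3.94 and 54.8 ± 3.08 CPM (SD, n = 3 a group) and a log2 fold change of -0.30 (SE 0.114, 95% interval -0.56 to -0.04, adjusted p = 0.565 from edgeR's test). MAD2L2 fell by 0.27 in replicates 2 and 3 (adjusted p = 0.00501).

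The polymerases that insert a base opposite the lesion had log2 fold changes near 0, and their groups overlapped. POLH, which bypasses cisplatin adducts between neighbouring guanines, was at 19.0, 24.7 and 22.8 CPM with METTL3 and at 20.2, 25.4 and 26.4 CPM with the vector, for a log2 fold change of -0.11 (95% interval -0.47 to 0.24, adjusted p = 0.84 from edgeR's test). REV1, a deoxycytidyl transferase and scaffold for the other polymerases, had 52.5, 46.1 and 46.6 CPM with METTL3 and 53.3, 44.8 and 43.9 CPM with the vector, for a log2 fold change of 0.03. POLI and POLK had values of -0.04 and -0.08, and POLK was lower in both replicate 1 libraries (15.1 and 15.8 CPM) than in the other libraries (22.1 to 24.4 CPM). RAD18, the ligase that marks PCNA at stalled forks, was at 31.3, 37.2 and 37.0 CPM with METTL3 and 46.0, 37.5 and 36.0 CPM with the vector, with a log2 fold change of -0.18 over all libraries and of 0.01 in replicates 2 and 3.

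**Figure D3:**
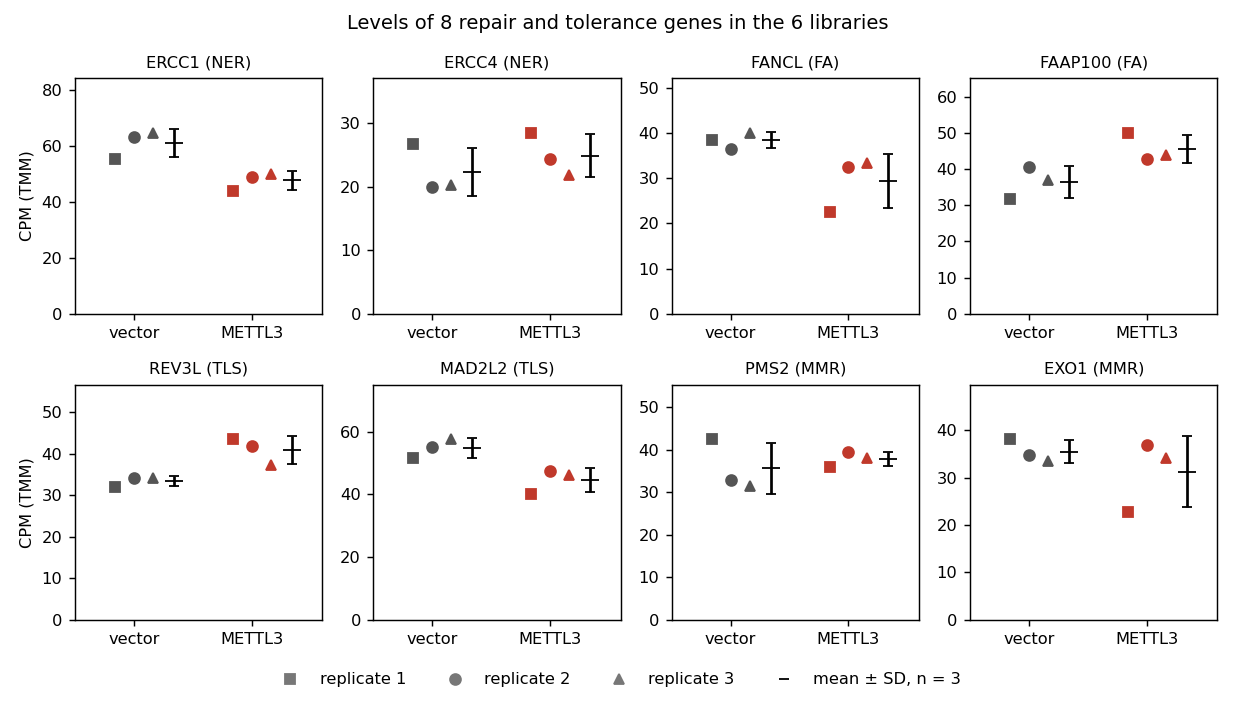
CPM of 8 genes in each library, with grey symbols for vector control and red symbols for METTL3-overexpressing libraries, shaped by replicate number, and a black bar for the mean ± SD (n = 3). ERCC1, FANCL and MAD2L2 are lower and FAAP100 and REV3L higher in every METTL3-overexpressing library, whereas ERCC4, PMS2 and EXO1 overlap. NER, FA, TLS and MMR name the pathway.

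The MMR genes gave no gene with an unadjusted p-value under 0.05 and none whose groups did not overlap. MSH3 and MSH6, each of which forms a mismatch-sensing heterodimer, had log2 fold changes of 0.10 (95% interval -0.25 to 0.45) and -0.08 (-0.35 to 0.19). MSH3 was at 28.3, 36.1 and 32.9 CPM with METTL3 and 24.9, 33.8 and 31.8 CPM with the vector, and MSH6 was at 111, 121 and 116 CPM with METTL3 and 138, 116 and 113 CPM with the vector. PMS2, which provides the nicking activity of the main MutL complex, was at 36.0, 39.4 and 38.0 CPM with METTL3 and at 42.5, 32.9 and 31.5 CPM with the vector. Its log2 difference was -0.24 in replicate 1 and 0.26 and 0.27 in replicates 2 and 3, where the rise passed the test (log2 fold change 0.26, adjusted p = 0.00842 from edgeR's test). PMS2 shares sequence with several pseudogenes, and the expressed copy PMS2CL was at 12.7, 11.4 and 11.2 CPM with METTL3 and 14.7, 10.9 and 9.65 CPM with the vector, so counting could have split reads between them.

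EXO1, the exonuclease that removes the mismatched strand, was at 22.8, 36.9 and 34.1 CPM with METTL3 and at 38.2, 34.8 and 33.5 CPM with the vector. The first METTL3-overexpressing library was far below all others, and the log2 fold change of -0.18 (95% interval -0.59 to 0.23, adjusted p = 0.777 from edgeR's test) became 0.06 in replicates 2 and 3. The MutL genes MLH3 and PMS1 had log2 fold changes of -0.15 and -0.16. Over the 6 MMR genes the median was -0.115, with 2 above 0 and 4 below, and in replicates 2 and 3 it was 0.05, with 5 above 0 and 1 below.

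Several of these proteins work as partners, and the count ratio of a pair within a library does not depend on how libraries are scaled. Ratios were taken for 7 pairs, a choice made after the values of single genes were seen. REV3L over MAD2L2 was 1.09, 0.885 and 0.802 with METTL3 and 0.623, 0.621 and 0.593 with the vector, a log2 difference of 0.58 with no overlap. FAAP100 over FANCL was 2.22, 1.32 and 1.32 with METTL3 and 0.825, 1.11 and 0.919 with the vector, a log2 difference of 0.73, also with no overlap. Both reached p = 0.1 in the two-sided exact permutation test, the smallest possible with 3 against 3, and 0.35 after adjustment over the 7 pairs. In both pairs the numerator gene was already higher and the denominator gene lower in every METTL3-overexpressing library. The ratios therefore could not overlap, so this p-value was fixed in advance and adds nothing to the values of the single genes. ERCC4 over ERCC1 was higher by 0.52 on the log2 scale with METTL3, at 0.651, 0.5 and 0.437 against 0.485, 0.316 and 0.315, and METTL3-overexpressing replicate 3 lay below vector control replicate 1 (exact permutation p = 0.2, adjusted 0.35). The pairs XPC and RAD23B, DDB2 and DDB1, FANCM and FAAP24, and FANCI and FANCD2 had log2 differences between -0.14 and 0.12, each with overlap between the groups.

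**Figure D4:**
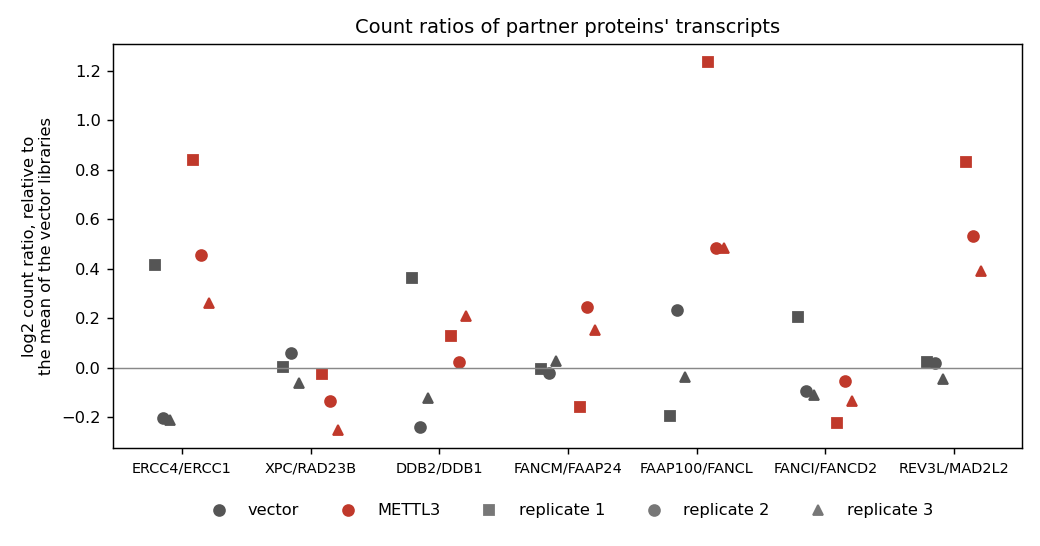
Count ratio of 7 pairs of partners in each library on the log2 scale, set relative to the mean of the vector control libraries, with grey for vector, red for METTL3 and the replicate number by shape. Groups are apart for FAAP100/FANCL and REV3L/MAD2L2, with log2 differences of 0.73 and 0.58, and overlap for the other 5 pairs. The separation in FAAP100/FANCL and REV3L/MAD2L2 was fixed by the single genes, which did not overlap and lay in opposite directions.

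Much of the spread of these genes followed the replicate 1 libraries. In replicate 1, 35 of the 42 genes (83.3%) were lower with METTL3 than with the vector, against 50.1% of all genes tested, with medians of -0.185 for NER, -0.303 for FA, -0.063 for TLS and -0.278 for MMR on the log2 scale. In replicate 2 the medians were -0.03, 0.008, -0.038 and 0.077, and in replicate 3 they were 0.051, 0.081, 0.025 and 0.031, so the pathways lay close to 0 in both. For 16 of the genes (38.1%), replicate 1 was the lowest METTL3-overexpressing library and the highest vector control library, against 16.1% of all genes tested. These included FANCI, FANCD2, UBE2T, EXO1, MSH6, PMS1, PMS2, RAD18, DDB2 and CETN2. Another 13 genes (31.0%), such as FANCA, POLH, POLK, MSH3 and ERCC1, were lowest in replicate 1 of both groups, against 20.8% of all genes. The difference had the same negative sign in all 3 replicate numbers for 13 of the 42 genes (31.0%), against 20.0% of all genes, and the same positive sign for 5 (11.9%), against 19.6%.

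The 20 proliferation genes moved in the same libraries. Their summed level was 3720 CPM in METTL3-overexpressing replicate 1 against 5010 and 4870 CPM in replicates 2 and 3, and 5050 CPM in vector control replicate 1 against 4650 and 4700 CPM. Replicate 1 was the lowest METTL3-overexpressing and highest vector control library for 15 of these 20 genes. In bulk RNA, fewer dividing cells and less RNA per cell cannot be told apart, and the part of cell division in the values of the repair genes was not tested.

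**Figure D5:**
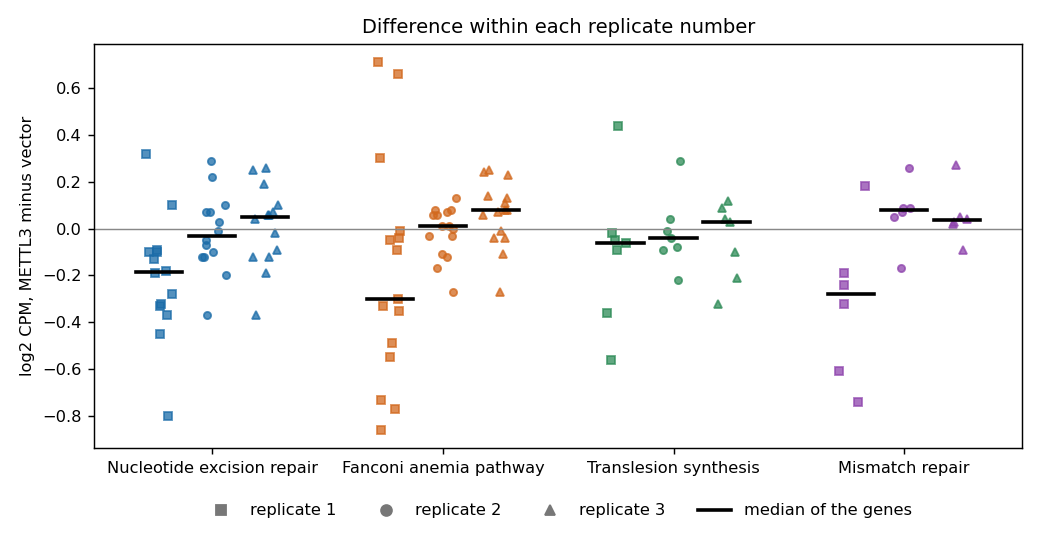
Log2 CPM with METTL3 minus that with the vector within each replicate number, 1 point a gene, by pathway, with black bars at the median of each pathway. The replicate 1 medians are -0.185, -0.303, -0.063 and -0.278 from left to right, and all medians of replicates 2 and 3 lie between -0.038 and 0.081.

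Promoters were read because several of these genes moved together in replicate 1. RefSeq promoters (GRCh38.p14, from 250 bases before to 50 after the start) were found for 41 of the 42 genes. Motifs of the E2F family, factors of the S phase of the cell cycle, were searched on both strands as TTTCCCGC, TTTCGCGC, TTTGCCGC or TTTGGCGC. They occurred in 9 of the 41 promoters (22.0%), against 3.33% of 27305 promoters, and the 9 genes were XPC, FANCA, FANCC, FANCD2, POLI, MSH3, MSH6, PMS2 and EXO1. Windows of 30 bases from 5 of them are printed 5' to 3' on the gene's strand, since they show the motif in FA and MMR genes with both replicate 1 patterns. Capitals mark the motif, which reads on the other strand in FANCA and FANCD2.
FANCA, chr16:89816801-89816830, reverse strand: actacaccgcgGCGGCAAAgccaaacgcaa
FANCD2, chr3:10026424-10026453, forward strand: cgtcgggcctgGCGGGAAAgtcgaaaacta
MSH3, chr5:80654534-80654563, forward strand: gcgcggtcaagTTTGGCGCgaaattgtggc
MSH6, chr2:47783137-47783166, forward strand: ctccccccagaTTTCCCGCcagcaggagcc
EXO1, chr1:241848197-241848226, forward strand: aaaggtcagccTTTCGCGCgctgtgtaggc
In MSH3 a second match, TTTCGCGC on the other strand, overlaps the one shown. Of the 9 genes, 4 were lowest in METTL3-overexpressing and highest in vector control replicate 1, and 3 were lowest in replicate 1 of both groups. FANCC and POLI, whose windows are not printed, showed neither pattern. Over all 42 genes these patterns held for 16 (38.1%) and 13 (31.0%), and a link between the motif and replicate 1 was not tested. Their log2 fold changes over all libraries ran from -0.18 to 0.10, and none of ERCC1, FANCL, FAAP100, REV3L and MAD2L2 held these letters in the window searched.

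The palindrome bound by the respiratory factor NRF1, whose letters stand in capitals in the windows that follow, occurred in 4 of the 41 promoters (9.76%), those of ERCC6, SLX4, RAD18 and MLH3, against 1.36% of all promoters. In ERCC6 and SLX4 it lay at the start site itself, and these windows of 32 bases are printed since they place the same motif at the same distance in an NER and an FA gene,
ERCC6, chr10:49539109-49539140, reverse strand: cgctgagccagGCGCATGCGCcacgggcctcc
SLX4, chr16:3611594-3611625, reverse strand: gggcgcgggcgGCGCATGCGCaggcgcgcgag
The motif starts 8 bases before the annotated start in both. These matches describe letters and not binding.

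Since METTL3 writes m6A mainly in the pattern DRACH (A, G or T, then A or G, then AC, then A, C or T), its occurrences were counted in the canonical transcripts. The 42 genes had a median of 80 such sites against 45 over all genes tested, and their transcripts were longer, with a median of 4179.5 against 2411 bases. Per kilobase the medians were 19.7 and 19.1. MAD2L2 had the fewest, 11 sites at 10.4 per kilobase, and POLK the most, 297 sites, followed by REV3L with 249. Methylation itself was not measured in these libraries.

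Other genes of the same pathways were read from lists drawn up by function. On all 6 libraries none of 16 further NER genes, 18 further FA genes, 12 further TLS genes and 19 genes of the shared gap-filling machinery passed an adjusted p-value of 0.05 in edgeR's test. Their median log2 fold changes were -0.16, -0.11, -0.096 and -0.18, against -0.018 over all genes tested, and in replicates 2 and 3 they were 0.017, 0.057, 0.028 and 0.01, so that all 4 signs turned. In replicates 2 and 3, 0 of the NER genes rose and 3 fell, 2 FA genes rose and 2 fell, 2 TLS genes rose and 0 fell, and 3 gap-filling genes rose and 1 fell. Over all genes, 6.66% rose and 8.59% fell in the same libraries, and no list was tested as a set. Of those that passed, up to 3 a list are named, by the lowest p-values. CUL4B and CUL4A, scaffolds of the ligase that holds DDB1 and DDB2, fell by 0.31 (adjusted p = 0.00125) and 0.19 (adjusted p = 0.0219 from edgeR's test), and MNAT1, a subunit of the TFIIH kinase module, fell by 0.28 (adjusted p = 0.00694). RMI2, part of the complex that dissolves crossed strands, rose by 0.27 (adjusted p = 0.00375), while FAAP20, which links the core complex to ubiquitin, fell by 0.21 (adjusted p = 0.0306) and UBE2W, a ubiquitin-conjugating enzyme, by 0.19 (adjusted p = 0.0496). Of the TLS genes, POLQ, the polymerase of end joining, rose by 0.26 (adjusted p = 0.0161) and USP7, a deubiquitinase, by 0.17 (adjusted p = 0.0415). POLE4, a small subunit of polymerase epsilon, fell by 0.30 (adjusted p = 0.0072), and PCNA, the sliding clamp, and POLD3, a subunit of polymerase delta, rose by 0.27 (adjusted p = 0.00836) and 0.24 (adjusted p = 0.0109 from edgeR's test). PCNA was at 408 CPM in vector control replicate 1 and between 214 and 283 CPM in the other 5 libraries, and its log2 fold change over all 6 libraries was -0.12 (adjusted p = 0.893 from edgeR's test).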

How the data were processed

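The authors aligned reads to hg38 (GRCh38) with HISAT2 and counted them per gene with featureCounts of Subread, and fastp is named in the submitters' processing notes. Versions, the annotation release and the strand setting are not given in the sources used here, and the paper and the labels describe different kits and read lengths. Exons of MTMR10, ZNF276 and EIF5B, among others, lie opposite 31.1%, 27.4% and 18% of the canonical FAN1, FANCA and REV1 exonic bases. The strand setting bears on these values too. The deposited values are raw counts, not normalized, for 60649 gene rows. Between 67.6% and 70.5% of counts from 1 to 20 were even, as when both mates of a pair are counted. Names, positions and canonical transcripts came from GENCODE 44. The test was the quasi-likelihood F-test of edgeR 4.0.16 (R 4.3.3; TMM factors, robust dispersions) on the 22038 genes that its filterByExpr kept. Adjustment was by Benjamini-Hochberg over all of them, at a threshold of 0.05. DESeq2 1.42.0 was an alternative. TPM are CPM per kilobase of canonical transcript, rescaled. Functions were tested on simulated data. Correlations of same-numbered libraries' deviations from group means were 0.334, 0.12 and 0.175, so log2 differences are also given within each replicate number. The main test was not paired, and the replicate number was a block only in an alternative. Pairing by number comes from the values. METTL3-overexpressing replicate 2 against vector control replicate 3 reached 0.205, and METTL3-overexpressing replicate 3 against vector control replicate 2 reached 0.133. The values thus set replicate 1 apart but do not show which of replicates 2 and 3 belong together. The genes, lists and tests were chosen with earlier results of these data known. Values in every library are given for genes with an unadjusted p-value under 0.05, groups that did not overlap, or a call on fewer libraries, and for 18 central genes of each role. Of the other pathway genes, up to 3 a list are named by p-value. CETN2, UBE2T, POLK, the exon neighbours and PCNA's levels were added after their values were seen.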

Additional observations from a re-analysis of the deposited data

How the results depend on the processing

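No repair or tolerance gene passed an adjusted p-value of 0.05 under DESeq2, other size factors, upper-quartile normalization, either other filter, the replicate block or any fit without 1 library, and 6 did in replicates 2 and 3 (7 with DESeq2, an alternative added after seeing the data). Over all genes tested the calls numbered 0 to 367 with 1 library left out, 280 with DESeq2, 560 with no low-count filter, and 3362 and 3233 in replicates 2 and 3 with edgeR and DESeq2. Repair and tolerance genes with an unadjusted p-value under 0.05 numbered 3 with DESeq2 (9.27% of all genes), 12 and 11 in replicates 2 and 3 with edgeR and DESeq2 (27.1% and 22.6% of all genes), and 0 to 7 with 1 library left out. Among the fits with 1 library left out, the share over all genes was counted only without vector control replicate 1 (16.2%). With the replicate block there were 4 repair and tolerance genes with an unadjusted p-value under 0.05 and 0 calls over all genes, so it changed no call. The log2 fold change of METTL3 was 1.18 with DESeq2, 1.18 with no low-count filter, and 1.28 and 1.29 in replicates 2 and 3. METTL3 passed the threshold in each of these. With 1 library left out the value ran from 1.13 to 1.23 and passed only without vector control replicate 1 (adjusted p = 0.00708 from edgeR's test). It did not pass with the replicate block, other size factors, upper-quartile normalization or the filter of at least 10 counts. The median for TLS was -0.035 and -0.027 in replicates 2 and 3 with edgeR and DESeq2, and ran from -0.179 to -0.008 with 1 library left out. In replicates 2 and 3 the sign turned for 12 of the 42 genes with edgeR, 7 of them among the 24 genes given in every library by rule. The values of these 7 with edgeR and DESeq2 were as follows: XPA (0.05 and 0.06), FANCM (0.04 and 0.05), FANCD2 (0.11 and 0.12), FANCI (0.12 and 0.13), RAD18 (0.01 and 0.02), MSH6 (0.04 and 0.05) and EXO1 (0.06 and 0.06), and FANCD2 was at 0.00 under both other filters. The other 5 were CETN2, FANCB, FANCF, FANCG and PMS1. With 1 library left out, values of the 24 that turned sign ran from -0.10 to 0.04 for XPA, -0.01 to 0.19 for DDB2, -0.24 to 0.09 for ERCC2, -0.19 to 0.06 for FANCM, -0.19 to 0.16 for FANCA, -0.07 to 0.10 for FANCD2, -0.22 to 0.01 for POLH, -0.01 to 0.13 for REV1, -0.02 to 0.22 for MSH3, -0.11 to 0.01 for MSH6 and -0.29 to 0.02 for EXO1. None of these had passed the test on all 6 libraries, though DDB2 and ERCC2 passed it in replicates 2 and 3, and the cause was not tested. Of the 24, 11 kept their sign under all 14 alternatives: ERCC1, XPC, GTF2H1, FAAP24, FANCL and MAD2L2 lower, and ERCC4, FAAP100, SLX4, REV3L and PMS2 higher. All alternatives reuse these 6 libraries or some of them, so they are no independent check. For ERCC1, GTF2H1, FAAP24, FANCL, MAD2L2, FAAP100 and REV3L the groups did not overlap, which largely fixed the sign in advance. PMS2 kept its sign although its replicate 1 difference was -0.24. Kept signs were not counted over all genes. With 2 libraries a group, calls rest on the spread between 2 replicates.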
